A study of Rattus norvegicus with 12 samples.

Results

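Cholesterol and fatty acid synthesis genes were followed in cultured heart muscle cells given 3 forms of the transcription factor MEF2C. The list held 45 gene symbols, chosen by pathway, with earlier results of these data known. Probe sets carrying a single gene symbol were found for 39 of them, among 14497 genes so represented, and 38 of the 39 passed a filter on low values that left 10025 genes in all. The unmatched symbols were Hmgcs1, Elovl1 and Srebf1, and the older names Sc4mol, Sc5dl and Scd1, whose genes were measured as Msmo1, Sc5d and Scd. Npc1l1, an intestinal sterol uptake protein, was measured but lay below the filter, with a mean of 4.49 log2 units over the 12 arrays, and was not tested.

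The cells were ventricular cardiomyocytes of newborn Wistar rats, plated for 44 h and then kept without serum for 24 h, and all 4 groups had 3 whole-transcript arrays labelled from 2 µg of total RNA. One group received adenovirus for mef2Cγ+ (γ+), one adenovirus for mef2Cγ- (γ-), one adenovirus for mef2Cγ+23/24 (23/24), and the control group was untreated. MEF2C is made with or without its γ region by alternative splicing; the labels do not explain 23/24, and no group given a virus without mef2C was analysed here. The arrays are labelled biological replicates, but no label ties them to separate isolations of cells, and the p-values speak only for the spread among these 12 samples. Levels are the deposited values, taken as log2 intensities; they depend on the probes, so each gene was compared with itself across arrays and never with another gene.

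Animal cells build cholesterol from acetyl-CoA through mevalonate, farnesyl diphosphate, squalene and lanosterol. Farnesyl diphosphate is also the source of the lipid anchors of small GTPases, of dolichol and of ubiquinone. The SREBP transcription factors switch these enzymes on when sterols in the endoplasmic reticulum are low; SCAP carries SREBP to the Golgi, and the INSIG proteins hold both back when sterols are plentiful. Saturated fatty acids made by fatty acid synthase are lengthened by ELOVL enzymes and given double bonds by SCD and FADS desaturases. Heart muscle is known mainly for burning fatty acids, and also needs cholesterol and unsaturated fatty acids for its membranes.

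Some facts of the whole series bear on every value below. Probe sets with exactly the same value on 2 arrays were found (27 to 111 of them) in each of the 21 pairs drawn from γ+ alone, from γ- alone or from 23/24 and control together, but in 0 of the 45 remaining pairs. This pattern points to 3 normalization runs, with γ+ and γ- each in a run of its own, and run and group cannot be told apart except for 23/24 against control. Calls in γ+ covered most genes: limma (adjusted p under 0.05, Benjamini-Hochberg over 10025 genes) called 38.7% of all genes lower and 26.2% higher in γ+ than in control. Among all called genes 40.4% were higher, against 51.2% when arrays were centred on their medians and 48.0% after quantile normalization.

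With the γ+ vector the synthesis genes were mostly lower. Of the 38 tested genes, 33 fell and 1 rose against control, 86.8% and 2.63%, beside the 38.7% and 26.2% of all genes. Their median log2 change was -0.56, beside -0.07 over all genes; with median centring these were -0.47 and 0.02, and with quantile normalization -0.51 and -0.01. The called falls left between 38.4% and 85.6% of the control level. Called falls of at least 1 log2 unit numbered 5 of the 38 (Hsd17b7, Scd, Fads1, Nsdhl and Tm7sf2), beside 5.95% of all genes. At or below the 10th percentile of all genes' changes (-0.78) lay 10 of the 38. In a mixed culture, fewer cells of a type and less RNA per cell cannot be told apart.

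**Figure D1:**
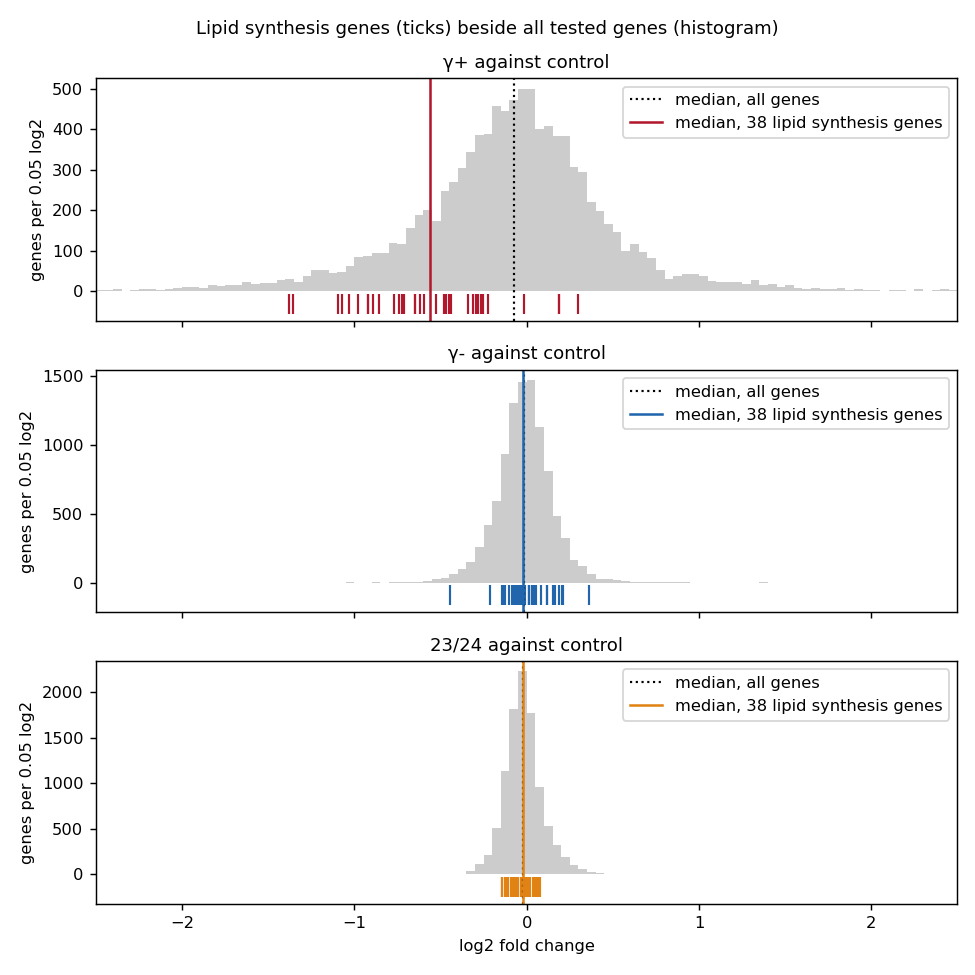
Histograms of the log2 fold changes of all 10025 tested genes (grey, genes per bin on the vertical axis) with the 38 cholesterol and fatty acid synthesis genes as ticks, for γ+, γ- and 23/24, each against control. Changes beyond the ends of the axis are not drawn; dotted lines mark the median of all genes and coloured lines that of the synthesis genes, -0.56 in γ+, -0.02 in γ- and -0.02 in 23/24.

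The early pathway, from acetyl-CoA to the prenyl diphosphates, fell in 6 of 7 tested genes with γ+ (median -0.45). Fdps, which makes farnesyl diphosphate, read 9.71, 9.88 and 9.58 on the γ+ arrays, against 10.66, 10.54 and 10.58 in γ-, 10.42, 10.49 and 10.55 in 23/24 and 10.62, 10.55 and 10.57 in control. All 3 γ+ arrays were lower than the 9 others, and the change against control was -0.86 ± 0.07 log2 (SE), 55.2% of the control level (limma adjusted p = 8.93e-09). Pmvk, the phosphomevalonate kinase, read 6.74, 6.35 and 6.62 in γ+, against 7.70, 7.74 and 7.83 in γ-, 7.55, 7.49 and 7.55 in 23/24 and 7.56, 7.56 and 7.52 in control. Its γ+ arrays were again the lowest 3, the second replicate by a margin, and it fell by 0.98 ± 0.08 log2 (limma adjusted p = 2.76e-08). The kinase before it, Mvk, changed by -0.60 ± 0.06, the decarboxylase Mvd by -0.44 ± 0.08 and the isomerase Idi1 by -0.45 ± 0.07. Acat2, which joins acetyl-CoA units at the entry, fell least of the 6, by 0.26 ± 0.07 (limma adjusted p = 0.00421; 0.0680 with median centring). Ggps1, which extends farnesyl to geranylgeranyl diphosphate, was not called: it read 6.46, 5.84 and 6.44 in γ+, against 6.14, 6.14 and 5.98 in γ-, 6.38, 6.36 and 6.42 in 23/24 and 6.47, 6.71 and 6.41 in control. The second γ+ array alone was low, and the difference of -0.28 had an SE of 0.13 (limma adjusted p = 0.0703). Without that array it was -0.08 (limma adjusted p = 0.451), and it was called without γ+ replicate 1 (-0.39, limma adjusted p = 0.0221) or γ+ replicate 3 (-0.38, limma adjusted p = 0.0267).

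The steps from squalene to cholesterol fell in 11 of 11 tested genes (median -0.89; 10 of 11 with median centring, Fdft1 then reaching limma adjusted p = 0.0548). Nsdhl, the dehydrogenase that removes methyl groups from the sterol ring, read 7.67, 7.74 and 7.71 in γ+, against 8.63, 8.72 and 8.73 in γ-, 8.69, 8.69 and 8.70 in 23/24 and 8.86, 8.75 and 8.72 in control. The 3 γ+ arrays lay close together and about 1 log2 unit under the other 9, a change against control of -1.07 ± 0.06 (limma adjusted p = 5.98e-11). Sc5d, a late sterol desaturase, read 9.49, 9.41 and 9.47 in γ+, against 10.32, 10.33 and 10.35 in γ-, 10.17, 10.26 and 10.27 in 23/24 and 10.37, 10.36 and 10.31 in control. Its change was -0.89 ± 0.05 (limma adjusted p = 7.76e-11), and the γ+ arrays did not overlap any other group. The widest fall of all 38 was that of Hsd17b7, the ketosteroid reductase that works beside Nsdhl, shown here after its values were seen. It read 6.84, 6.44 and 6.86 in γ+, against 8.05, 8.01 and 8.07 in γ-, 8.00, 8.13 and 8.06 in 23/24 and 8.17, 8.08 and 8.03 in control. That is 38.4% of the control level, a change of -1.38 ± 0.09 log2 (limma adjusted p = 1.38e-09).

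The other enzymes of this stretch fell by unequal amounts. The sterol reductase Tm7sf2 changed by -1.03 ± 0.08, squalene epoxidase Sqle by -0.92 ± 0.08, lanosterol demethylase Cyp51 by -0.92 ± 0.08 and lanosterol synthase Lss by -0.77 ± 0.07. Dhcr7, a final reductase, changed by -0.74 ± 0.07 and the methylsterol oxidase Msmo1 by -0.62 ± 0.06. The smallest falls were at squalene synthase, Fdft1 (-0.26 ± 0.06), and the sterol isomerase Ebp (-0.26 ± 0.06). Fdft1 thus kept 83.8% and Ebp 83.7% of the control level, where Tm7sf2 kept 48.8%.

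**Figure D2:**
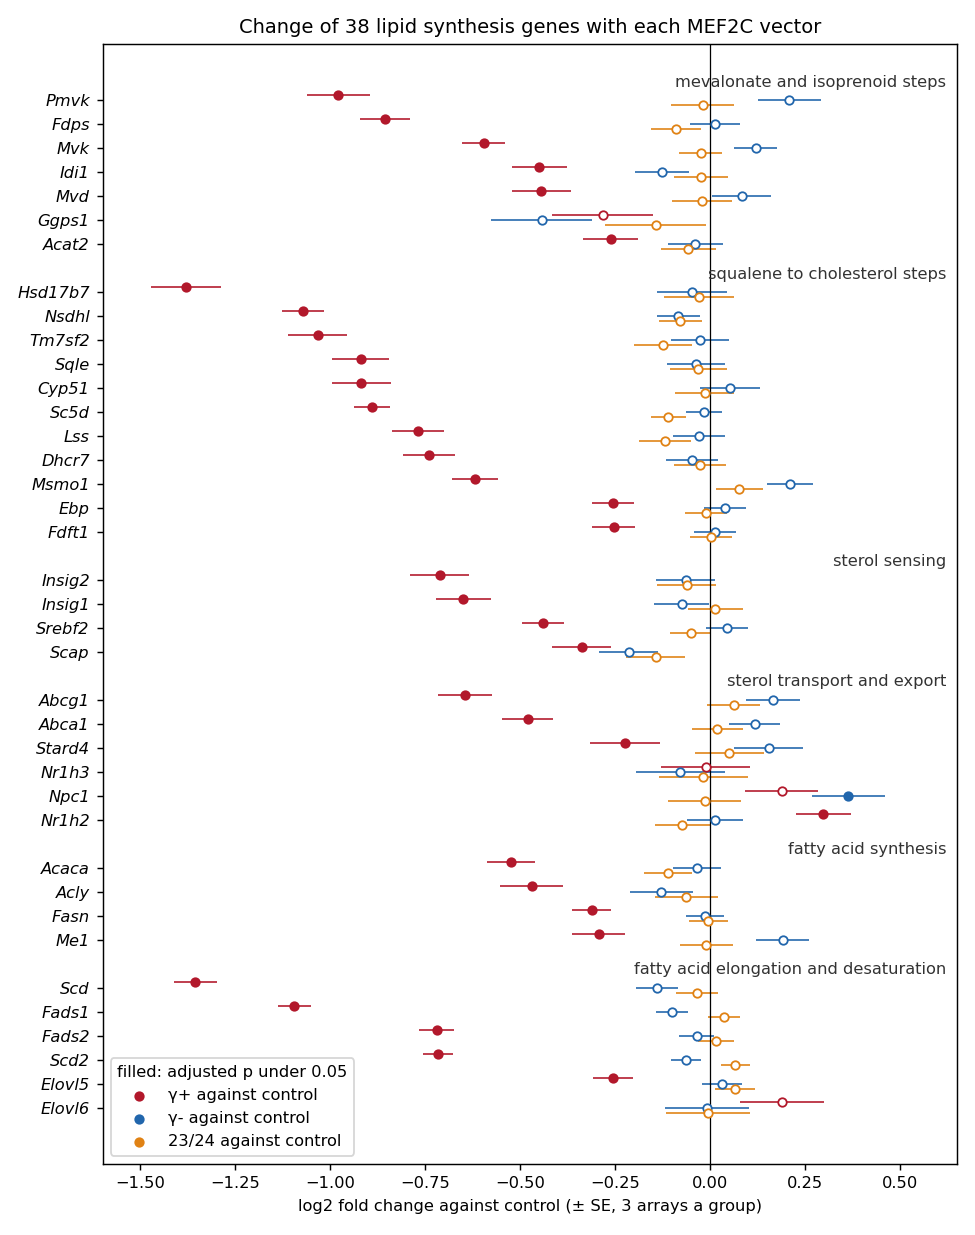
Log2 fold change against control (horizontal axis, ± SE, 3 arrays a group) of each of the 38 tested genes, grouped by role and ordered within a role by the γ+ change; red is γ+, blue γ- and orange 23/24, and filled points have a limma adjusted p under 0.05. The γ+ points lie left of 0 for 35 of 38 genes, while γ- has 1 filled point (Npc1) and 23/24 has 0.

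The 4 tested sterol-sensing genes all fell with γ+ (median -0.55). Insig2, an endoplasmic reticulum retention protein, read 6.59, 6.43 and 6.73 in γ+, against 7.32, 7.19 and 7.18 in γ-, 7.28, 7.26 and 7.15 in 23/24 and 7.32, 7.24 and 7.32 in control. The γ+ arrays were the 3 lowest, and the change was -0.71 ± 0.08 (limma adjusted p = 5.72e-07). Insig1, its relative and itself a target of SREBP, read 10.38, 10.03 and 10.34 in γ+, against 10.77, 10.83 and 10.86 in γ-, 10.90, 10.86 and 10.97 in 23/24 and 10.88, 10.87 and 10.94 in control. It changed by -0.65 ± 0.07 (limma adjusted p = 7.36e-07), and a second Insig1 probe set, not used in the test, differed by -0.68. Srebf2, which encodes SREBP-2, changed by -0.44 ± 0.05. The escort Scap changed by -0.34 ± 0.08 and differed from γ- by -0.12 ± 0.08, which was not called (limma adjusted p = 0.173). Against 23/24 it differed by -0.19 ± 0.08 (limma adjusted p = 0.0366). That call was lost with median centring (limma adjusted p = 0.587) and in the fit on the 6 arrays compared (0.0699). It was also lost without γ+ replicate 1, γ+ replicate 3, 23/24 replicate 2 or 23/24 replicate 3 (limma adjusted p = 0.0762 to 0.189).

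Sterol transport and export divided. Of 6 tested genes 3 fell and 1 rose (median -0.12; 2 and 2 with either rescaling and without γ+ replicate 2). Abcg1, a transporter that passes cholesterol to lipoproteins, read 7.04, 6.96 and 6.96 in γ+, against 7.78, 7.82 and 7.79 in γ-, 7.74, 7.59 and 7.75 in 23/24 and 7.56, 7.78 and 7.56 in control. Abca1, which exports it to apolipoproteins, read 7.20, 7.02 and 7.23 in γ+, against 7.78, 7.68 and 7.78 in γ-, 7.64, 7.63 and 7.68 in 23/24 and 7.57, 7.69 and 7.63 in control. Neither transporter's γ+ arrays overlapped another group, and the changes against control were -0.65 ± 0.07 for Abcg1 and -0.48 ± 0.07 for Abca1 (limma adjusted p = 5.72e-07 and 1.03e-05). The sterol carrier Stard4 fell by 0.23 ± 0.09 (limma adjusted p = 0.0403), a call lost under median centring (0.217), quantile normalization (0.0973), the replicate block (0.0573), the fit on the 6 arrays compared (0.0515) and when control replicate 1, control replicate 2, γ+ replicate 1 or γ+ replicate 2 was left out (0.0671 to 0.145).

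Nr1h2 was the 1 gene of the 38 that rose with γ+ in the values as deposited. It encodes a liver X receptor, a nuclear receptor for oxysterols that switches on both exporters. It read 8.39, 8.37 and 8.32 in γ+, against 8.02, 7.99 and 8.20 in γ-, 7.96, 7.94 and 8.06 in 23/24 and 8.18, 8.07 and 7.93 in control. The γ+ arrays were the 3 highest of the 12, and the change was 0.30 ± 0.07 (limma adjusted p = 0.00200). Its paralog Nr1h3 read 5.90, 5.60 and 5.67 in γ+ and 5.86, 5.69 and 5.66 in control. Those arrays overlapped, the difference being -0.01 ± 0.12 (limma adjusted p = 0.931). Npc1, which moves cholesterol out of lysosomes, read 8.01, 7.60 and 8.00 in γ+, against 8.06, 8.02 and 8.07 in γ-, 7.54, 7.74 and 7.74 in 23/24 and 7.71, 7.78 and 7.57 in control. Replicates 1 and 3 of γ+ lay near the γ- arrays and replicate 2 with control, and the change of 0.19 ± 0.10 was not called (limma adjusted p = 0.0986). Without γ+ replicate 2 it was 0.32 (limma adjusted p = 5.59e-04), and it was also called under median centring (0.28, adjusted p = 0.0326) and quantile normalization (0.22, adjusted p = 0.0390).

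**Figure D3:**
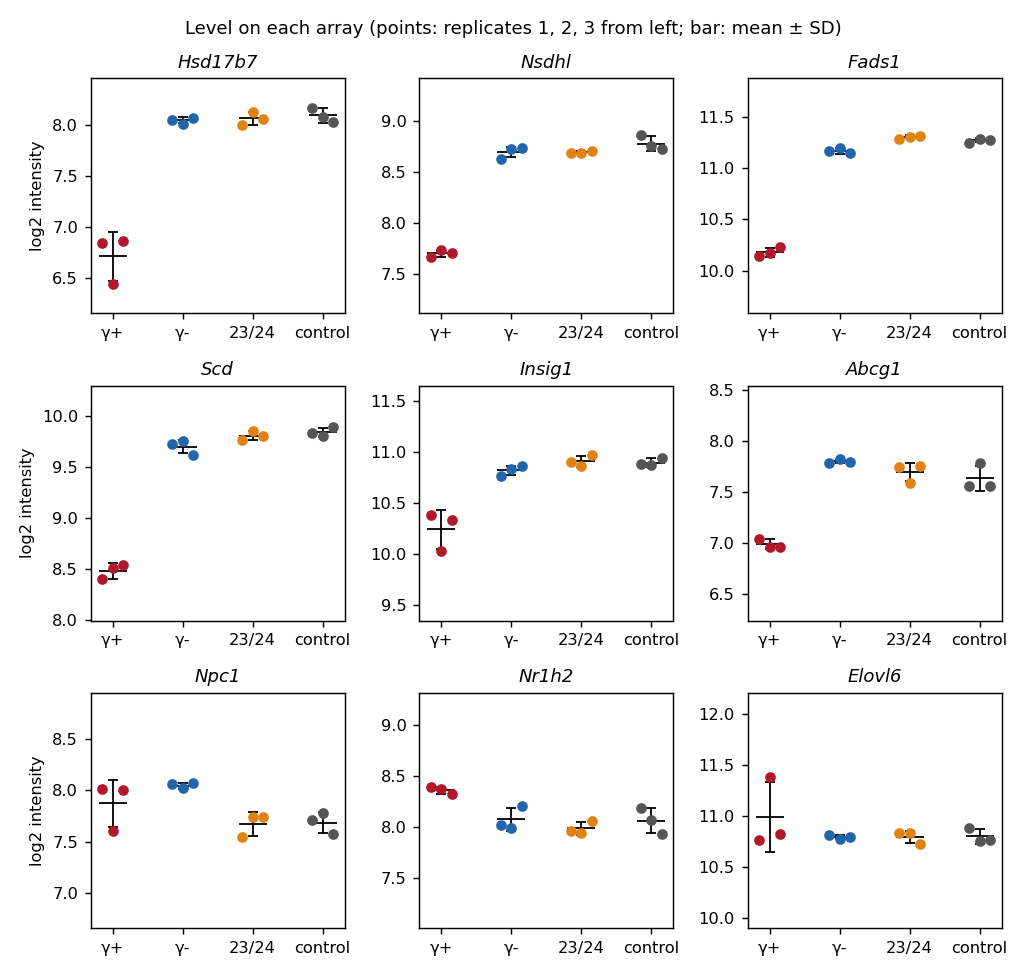
Log2 intensity on each of the 12 arrays (points, replicates 1 to 3 from left to right; bars, mean ± SD, n = 3) for 9 genes in the γ+, γ-, 23/24 and control groups; every panel spans the same range of log2 units. The γ+ points lie below the others in Hsd17b7, Nsdhl, Fads1, Scd, Insig1 and Abcg1 and above them in Nr1h2, while the second γ+ array stands apart in Npc1 and Elovl6.

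Fatty acid synthesis fell in 4 of 4 genes with γ+, more modestly (median -0.39). Acaca, the acetyl-CoA carboxylase that makes malonyl-CoA, read 7.92, 7.74 and 7.85 in γ+, against 8.41, 8.26 and 8.30 in γ-, 8.19, 8.25 and 8.31 in 23/24 and 8.35, 8.35 and 8.38 in control. Its change was -0.53 ± 0.06 (limma adjusted p = 1.79e-06). Fasn, the fatty acid synthase, read 8.81, 8.77 and 8.80 in γ+, against 9.10, 9.03 and 9.14 in γ-, 9.06, 9.09 and 9.14 in 23/24 and 9.10, 9.08 and 9.13 in control. Both genes had their γ+ arrays below the other 9, and Fasn changed by -0.31 ± 0.05 (limma adjusted p = 5.33e-05), to 80.5% of the control level. Acly, which supplies cytosolic acetyl-CoA from citrate, changed by -0.47 ± 0.08, and Me1, the malic enzyme that yields NADPH, by -0.29 ± 0.07.

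Elongases and desaturases fell in 5 of 6 tested genes (median -0.72). Fads1, a desaturase of polyunsaturated fatty acids, had the lowest adjusted p of the 38 together with one of the widest falls. It read 10.14, 10.17 and 10.23 in γ+, against 11.17, 11.20 and 11.15 in γ-, 11.29, 11.31 and 11.32 in 23/24 and 11.25, 11.29 and 11.28 in control, a change of -1.09 ± 0.04 (limma adjusted p = 2.44e-12). Scd, the stearoyl-CoA desaturase that makes oleate, read 8.40, 8.51 and 8.54 in γ+, against 9.72, 9.75 and 9.62 in γ-, 9.76, 9.85 and 9.80 in 23/24 and 9.83, 9.80 and 9.89 in control. It kept 39.1% of the control level, a change of -1.36 ± 0.06 (limma adjusted p = 4.48e-12). Its close copy Scd2 changed by -0.72 ± 0.04; whether the probe sets of the 2 copies share targets was not examined. Fads2 changed by -0.72 ± 0.05 and the elongase Elovl5 by -0.26 ± 0.05.

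Elovl6, the elongase of palmitate, was not called. It read 10.77, 11.38 and 10.82 in γ+, against 10.81, 10.78 and 10.79 in γ-, 10.83, 10.83 and 10.73 in 23/24 and 10.88, 10.76 and 10.77 in control. The second γ+ array alone was high, and the mean difference of 0.19 ± 0.11 (limma adjusted p = 0.145) became -0.01 without it, while median centring gave 0.28 (adjusted p = 0.0301) and quantile normalization 0.31 (adjusted p = 0.0408). That array was the lowest of the 3 γ+ arrays in 26 of the 38 genes (68.4%), beside 53.2% of all genes. Without it 32 of the 38 fell and 2 rose against control, with a median of -0.51.

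The γ+ arrays were also compared with both other vectors, which share those 3 arrays. Against γ-, 32 of the 38 were lower and 1 higher (median -0.59), where 37.5% of all genes were lower and 26.7% higher. Against 23/24, 33 were lower and 1 higher (median -0.54), where 37.9% of all genes were lower and 28.0% higher. With median centring all genes gave 2628 lower and 3703 higher against 23/24 (58.5% of the calls higher, beside 42.5% as deposited), and 27 of the 38 were lower and 3 higher. The gene that was higher in the deposited values was Nr1h2 in both, by 0.29 ± 0.07 over γ- and 0.37 ± 0.07 over 23/24. In 32 of the 38 genes the 3 γ+ arrays lay below all 9 others, beside 31.5% of all genes. Hsd17b7 differed by -1.33 ± 0.09 from γ- and by -1.35 ± 0.09 from 23/24, and Scd by -1.21 ± 0.06 from γ- and by -1.32 ± 0.06 from 23/24. Pmvk was 1.19 log2 units lower than in γ- and 0.96 lower than in 23/24. A test of any difference among the 4 groups (limma's moderated F, adjusted p under 0.05) called 36 of the 38, and 70.3% of all genes; Elovl6 and Nr1h3 were not called.

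Markers of several cell types moved with these falls. The cardiomyocyte marker Tnnt2 read 12.01, 11.99 and 12.01 in γ+ and 12.58, 12.56 and 12.56 in control, and all 6 markers of that cell type passed the filter on low values. In γ+ against control, 6 of 6 cardiomyocyte markers were lower (median -1.31), their level, turned back to a linear scale and summed, running from 9879 to 10397 on the γ+ arrays and from 21270 to 22466 on the control arrays. Fibroblast markers were lower in 6 of 6 (median -1.57; sums of 2233 to 2358 in γ+ and 6425 to 6554 in control), smooth muscle in 4 of 4 (median -0.72; 10608 to 11135 in γ+ and 17168 to 17501 in control) and endothelial in 6 of 6 (median -0.80; 296 to 324 in γ+ and 547 to 561 in control). Macrophage or leukocyte markers were lower in 3 of 5 tested. Sums over all 6 measured, Ptprc below the filter included, were 422 to 462 in γ+ and 643 to 652 in control. All these sums weigh the brightest probe sets most. Those were Acta2 for smooth muscle (control mean 13.52 log2) and Cd14 for macrophages or leukocytes (8.58 log2). Of 6 adipocyte markers, Adipoq, Plin1, Cidec and Lep lay below the filter, and of the other 2, Fabp4 fell by 0.62 and Lipe was not called (sums of the 6 markers 150 to 153 in γ+ and 162 to 170 in control). The part of these shifts in the falls of the synthesis genes was not tested.

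The γ- vector left nearly all 38 uncalled. Against control 0 were lower and 1 higher, where 3.88% of all genes were lower and 3.06% higher, and at an unadjusted p under 0.05 there were 9 of the 38, beside 22.8% of all genes. The changes ran from -0.44 to 0.36 with a median of -0.02. The called gene was Npc1, whose γ- arrays all lay above the 3 control arrays, a change of 0.36 ± 0.10 (limma adjusted p = 0.0347). That call was lost under median centring (0.0527) and whenever any 1 of the 6 arrays was left out (0.0565 to 0.129). Nearest to the threshold otherwise were Msmo1, at 0.21 ± 0.06 (limma adjusted p = 0.0512), and Ggps1, at -0.44 ± 0.13 (limma adjusted p = 0.0533). For Ggps1 the γ- arrays were all below the control arrays and overlapped the γ+ arrays. The γ- arrays lay wholly below control in 8 of the 38 genes and 1904 of all 10025, and wholly above in 6 and 1447.

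The 23/24 vector gave no call against control, a comparison within 1 normalization run as inferred from the equal values. Of the 38, 0 were lower and 0 higher by limma, as were 0% of all 10025 genes; an unadjusted p under 0.05 was reached by 1 of the 38 and by 899 genes in all (8.97%). With array weights the count over all genes was 152 lower and 68 higher, and 0 of the 38. The changes of the 38 lay between -0.14 and 0.08, with SEs of 0.04 to 0.13. The 2 of lowest p were Sc5d, at -0.11 ± 0.05 (limma adjusted p = 0.523), and Scap, which read 7.57, 7.62 and 7.64 in 23/24 and 7.87, 7.69 and 7.70 in control, at -0.14 ± 0.08 (limma adjusted p = 0.594). In both the 3 arrays of 23/24 lay below the 3 control arrays, as they did in 5 of the 38 genes and 1221 of all 10025.

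Between the vectors that left most of these genes uncalled, 1 was lower and 1 higher in γ- than in 23/24, where 3.94% of all genes were lower and 4.16% higher. With median centring all genes gave 198 lower and 698 higher (77.9% of the calls higher, beside 51.4% as deposited). Npc1 was higher by 0.38 ± 0.10 (limma adjusted p = 0.0258), with no overlap between the arrays. The γ- arrays lay wholly above the 23/24 arrays in 9 of the 38 genes and 2003 of all 10025. The Npc1 call was lost when any γ- array, 23/24 replicate 1 or 23/24 replicate 2 was left out (limma adjusted p = 0.0537 to 0.124). Scd2 read 12.47, 12.50 and 12.51 in γ-, against 12.61, 12.61 and 12.65 in 23/24, with 11.81, 11.88 and 11.83 in γ+ and 12.55, 12.55 and 12.57 in control. Its difference of -0.13 ± 0.04 (limma adjusted p = 0.0485) was small but exceeded the narrow spread of the arrays; it was not called under median centring (adjusted p = 0.457), quantile normalization (0.161) or without any 1 of the 6 arrays (0.102 to 0.173).

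Promoter sequence was read for the 31 of the 39 measured genes that RefSeq's promoter table (GRCr8) holds, 250 bases before to 50 after the listed start. Abcg1, Acaca, Elovl6, Fasn, Fdft1, Pmvk, Sqle and Stard4 had none. In all, 4 motifs were searched on both strands: CCAAT, a box bound by the factor NF-Y that often sits beside SREBP sites; the sterol regulatory element in the letters TCACNCCAC; the E-box CANNTG; and the MEF2 site, by its usual consensus. CCAAT was present in 20 of the 31 (64.5%), beside 37.7% of 8770 promoters of tested genes and 37.5% of all 33469. E-boxes were in 19 (61.3%), beside 62.9% and 72.1%. The sterol element was in 0 of 31, beside 1.17% and 1.12%, and the MEF2 site in 0 of 31, beside 1.46% and 3.29%; these letters were not in this window, which says nothing of binding. A CCAAT and an E-box overlapped in 1 promoter, that of Nsdhl.

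The promoters of 6 genes show the range, with CCAAT (or its reverse complement ATTGG) in capitals. Nsdhl and Mvk held the most boxes, 5 each, and Hsd17b7 and Msmo1 held 3, while Cyp51 and Scd, 2 genes that fell clearly with γ+, held none. Their windows were chrX:155817110-155817409, plus strand for Nsdhl; chr12:47819454-47819753, minus strand for Mvk; chr13:84722705-84723004, minus strand for Hsd17b7; chr16:29746863-29747162, plus strand for Msmo1; chr4:30991443-30991742, plus strand for Cyp51; and chr1:253231682-253231981, minus strand for Scd. Each is written 5′ to 3′ along the gene.
Nsdhl: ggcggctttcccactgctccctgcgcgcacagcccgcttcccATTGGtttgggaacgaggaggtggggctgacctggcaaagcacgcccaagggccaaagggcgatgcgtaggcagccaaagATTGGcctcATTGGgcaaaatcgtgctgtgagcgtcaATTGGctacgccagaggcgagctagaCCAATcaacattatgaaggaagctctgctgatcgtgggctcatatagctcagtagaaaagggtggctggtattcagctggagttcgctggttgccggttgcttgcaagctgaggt
Mvk: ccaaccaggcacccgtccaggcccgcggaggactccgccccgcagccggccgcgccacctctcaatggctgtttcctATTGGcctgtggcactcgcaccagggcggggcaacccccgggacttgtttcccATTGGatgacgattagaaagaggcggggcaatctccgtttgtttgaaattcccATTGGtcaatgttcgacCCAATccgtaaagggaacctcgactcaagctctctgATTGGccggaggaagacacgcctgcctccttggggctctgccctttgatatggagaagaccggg
Hsd17b7: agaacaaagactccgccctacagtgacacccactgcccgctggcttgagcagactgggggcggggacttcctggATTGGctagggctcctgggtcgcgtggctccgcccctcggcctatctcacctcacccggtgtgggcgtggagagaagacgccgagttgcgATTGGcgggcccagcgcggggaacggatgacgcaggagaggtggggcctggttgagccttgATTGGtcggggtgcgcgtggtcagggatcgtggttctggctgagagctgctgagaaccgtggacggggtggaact
Msmo1: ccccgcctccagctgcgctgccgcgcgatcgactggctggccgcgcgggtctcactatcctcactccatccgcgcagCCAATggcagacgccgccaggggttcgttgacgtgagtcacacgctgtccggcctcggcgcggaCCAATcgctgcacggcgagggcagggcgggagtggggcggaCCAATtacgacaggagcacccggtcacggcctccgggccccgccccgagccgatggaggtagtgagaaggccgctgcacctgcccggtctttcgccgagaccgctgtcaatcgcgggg
Cyp51: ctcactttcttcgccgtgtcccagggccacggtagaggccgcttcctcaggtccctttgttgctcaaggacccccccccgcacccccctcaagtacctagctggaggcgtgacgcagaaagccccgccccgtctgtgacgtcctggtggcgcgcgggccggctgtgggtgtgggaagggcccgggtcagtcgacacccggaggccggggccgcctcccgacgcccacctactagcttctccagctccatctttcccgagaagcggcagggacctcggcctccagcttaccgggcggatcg
Scd: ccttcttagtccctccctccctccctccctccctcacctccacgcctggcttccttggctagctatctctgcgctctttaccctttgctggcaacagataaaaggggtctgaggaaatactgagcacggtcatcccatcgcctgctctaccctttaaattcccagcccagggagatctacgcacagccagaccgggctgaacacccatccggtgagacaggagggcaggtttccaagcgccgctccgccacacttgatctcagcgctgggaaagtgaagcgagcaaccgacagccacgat
The boxes of Hsd17b7 began at -176, -86 and -25 counted from the listed start, and those of Msmo1 at -173, -109 and -68. Npc1l1, which lay below the filter and was not tested, also held 3 boxes. Among tested genes, the 19 with a CCAAT had a median γ+ change of -0.65 (-1.38 to -0.26) and the 11 without one -0.34 (-1.36 to 0.30), a description over ranges that overlap widely.

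Other lipid genes, from 6 lists chosen by pathway with earlier results known, did not all move alike in γ+ against control. Each list's counts stand beside 38.7% lower and 26.2% higher over all genes (median -0.07). The machinery that activates SREBP or turns over sterol enzymes gave 2 lower and 3 higher of 10 tested (median 0.08; 1 lower with either rescaling, and 4 higher with median centring or 5 with quantile normalization). Erlin1, an endoplasmic reticulum protein that restrains SREBP, rose: it read 7.91, 7.68 and 7.83 in γ+ and 7.02, 7.03 and 7.11 in control, a change of 0.76 ± 0.07 (limma adjusted p = 1.80e-07). Tmem97, a sterol-responsive membrane protein that binds NPC1, read 8.67, 8.47 and 8.65 in γ+ and 8.09, 8.07 and 8.02 in control, a change of 0.54 ± 0.07 (limma adjusted p = 3.66e-06). For both genes the γ+ arrays lay above the control arrays, where 33 of the 38 synthesis genes fell. Mbtps1, a protease that cuts SREBP, read 8.98, 8.48 and 8.92 in γ+ and 8.59, 8.55 and 8.54 in control. The groups overlapped, γ+ replicate 2 lying below every control array, and the difference of 0.23 ± 0.10 (limma adjusted p = 0.0482) was 0.39 without that array and was not called without any 1 of the other 5 (limma adjusted p = 0.0751 to 0.236). The second protease Mbtps2 was lower by 0.16 ± 0.06 (limma adjusted p = 0.0326), a call lost without any 1 array but γ+ replicate 2 (0.0529 to 0.107), and the retinal reductase Rdh11 was lower by 0.54 ± 0.09.

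Uptake, esterification and oxysterol genes fell in 10 of 17 and rose in 0 (median -0.23; 6 lower and 1 higher with median centring). The lipoprotein receptor Vldlr read 8.24, 8.02 and 8.26 in γ+ and 9.85, 9.85 and 9.85 in control, a change of -1.68 ± 0.07 (limma adjusted p = 3.68e-12), wider than any of the 38. The receptor Lrp1 changed by -1.20 ± 0.06 and the cholesteryl ester hydrolase Nceh1 by -0.99 ± 0.10. Genes listed under precursor and NADPH supply, not all of them suppliers themselves, fell in 6 of 8 tested (median -0.45). On that list the acetate-activating enzyme Acss2 changed by -1.34 ± 0.08, the mitochondrial acetyl-CoA carboxylase Acacb by -1.36 ± 0.09 and the dehydrogenase Idh1 by -0.52 ± 0.06. Partners of the elongases and desaturases fell in 4 of 6 and rose in 1 (median -0.31). Fads3 changed by -0.81 ± 0.08, Cyb5r3, which passes electrons to desaturases, by -0.48 ± 0.05, and the enoyl reductase Tecr by -0.22 ± 0.04, while the ceramide desaturase Degs1 changed by 0.17 ± 0.05.

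Users of isoprenoids gave 4 lower and 3 higher of 10 (median -0.08), near the 38.7% and 26.2% of all genes (median -0.07). With median centring they gave 2 lower and 4 higher (median 0.01). The dolichol enzyme Dhdds changed by -0.60 ± 0.06, while the geranylgeranyl transferase subunit Pggt1b changed by 0.42 ± 0.06, the ubiquinone enzyme Coq2 by 0.39 ± 0.07 and the prenyl-protein protease Rce1 by 0.36 ± 0.10. Glycerolipid synthesis fell in 11 of 18 and rose in 1 (median -0.41). The acyl-CoA synthetase Acsl1 changed by -1.20 ± 0.07, the acyltransferase Agpat3 by -0.82 ± 0.08 and the phosphatidylethanolamine enzyme Pcyt2 by -0.58 ± 0.07, while the phosphatidate phosphatase Lpin2 changed by 0.34 ± 0.11. In none of the 6 lists was a gene called in γ- against control or in 23/24 against control; Gpat3, a glycerol phosphate acyltransferase, was higher in γ- than in 23/24 by 0.48 ± 0.12 (limma adjusted p = 0.0252).

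**Figure D4:**
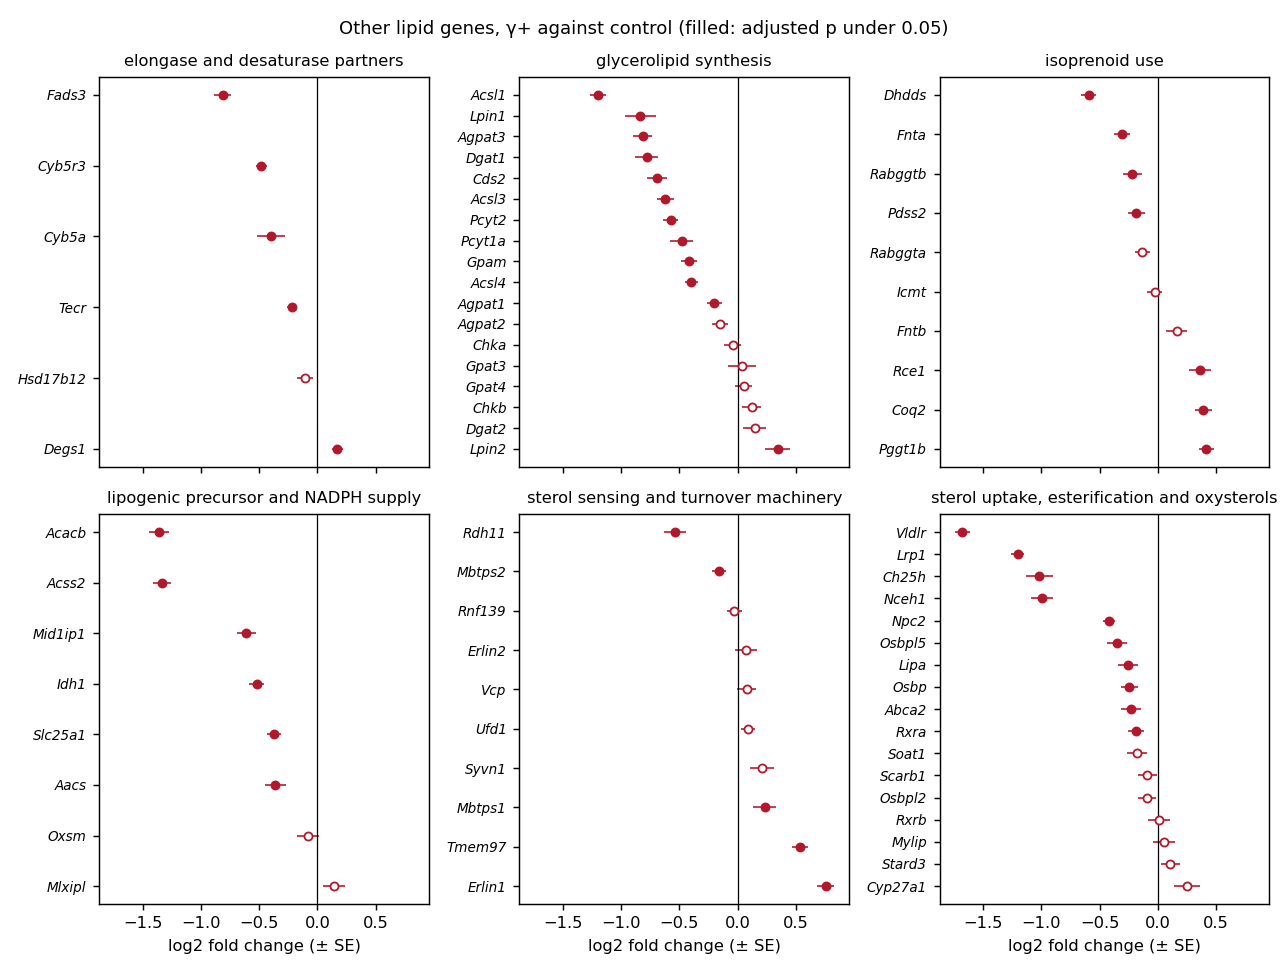
Log2 fold change of γ+ against control (horizontal axis, ± SE, 3 arrays a group) for the tested genes of 6 related lipid lists; filled points have a limma adjusted p under 0.05. Vldlr lies farthest left at -1.68, and Erlin1 and Tmem97 lie right of 0 at 0.76 and 0.54.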

How the data were processed

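Values were the authors' deposited log2 values, 1 table for 12 arrays and 28826 probe sets; the scale was judged from the values, and the submitters' processing notes name MAS5 without a version. No source used here gives the background correction, log base or normalization. Groups came from sample titles. A probe set stood for a gene where the probe table gave 1 symbol (15209 probe sets, 15178 matched to RefSeq GRCr8 by Entrez identifier); those with a mean over all arrays at or below the 40th percentile (4.78) were left out, and the highest mean was kept per gene. Comparisons used limma 3.58.1 under R 4.3.3 (lmFit, eBayes with trend, 12 arrays, 8 residual degrees of freedom), with p-values adjusted (Benjamini-Hochberg) over 10025 genes in each comparison; the procedure was tested on simulated data. The number of arrays limits the precision. Array-by-array values were given for, in each role, the 2 genes of lowest adjusted p in γ+ against control and those moving against their role's median, and for genes called between the other groups or, where none was called, the 2 of lowest p; values of Hsd17b7, Ggps1 and Nr1h3 were added after they were seen. The genes, lists and this rule were chosen with earlier results of these data known. Alternatives were 2 rescalings, 2 filters, the mean over probe sets, 2 variance priors, array weights, a fold minimum, a replicate block, fits on 6 arrays and leaving out each array.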

Additional observations from a re-analysis of the deposited data

How the results depend on the processing

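The falls in γ+ kept their direction under every alternative run. The counts lower were 32 to 34 against control, 31 to 33 against γ- and 31 to 32 against 23/24 when 1 array was left out, with 1 to 2 higher in each; a required change of over 1 log2 unit left 2 lower (Hsd17b7 and Scd) and 0 higher in each. Higher against control were 3 with median centring, 3 with quantile normalization and 2 with array weights; against γ-, 2 with each of these; against 23/24, 3, 2 and 2. In γ- against control, the counts lower were 1 without a filter, 2 with array weights and 2 with the 6 arrays alone, and 0 to 0 when 1 array was left out. There the counts higher were 0 with median centring, the replicate block or the fold minimum, 2 without a filter, 2 with the mean over probe sets, 4 with array weights, 4 with the 6 arrays alone and 0 to 0 when 1 array was left out. In γ- against 23/24, lower were 0 with median centring, no filter, no trend, the replicate block or the fold minimum, 5 with array weights and 3 with the 6 arrays alone (0 to 0 with 1 array left out); higher were 5 with array weights, 0 with the fold minimum, 4 with the 6 arrays alone and 0 to 2 with 1 array left out. The cause of these changes was not tested. In 23/24 against control, 0 of the 38 were called under any alternative.

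Signs reversed for differences that were not called. Nr1h3 in γ+ against control was 0.0754 with median centring, 0.0709 with quantile normalization and 0.0343 with array weights, and -0.101 to 0.0478 when 1 array was left out. Elovl6 ran from -0.00750 (without γ+ replicate 2) to 0.300 (without γ+ replicate 1). With the replicate block, 32 of the 38 fell in γ+ against control; same-numbered arrays did not deviate together (18 correlations, -0.22 to 0.12, median -0.04), so the numbers were not taken as pairs. The comparison of 23/24 with control is the 1 comparison inside a normalization run, as far as the equal values show. No label names these runs.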
